A study of Bos taurus with 15 samples.

Results

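The transcripts of OXTR, ESR1, and PGR, the receptors of oxytocin, estrogen, and progesterone, were measured in the caruncular endometrium of cows on days 15 and 18 of the estrous cycle and of early pregnancy. The members were the array probes, other than controls, whose gene name was one of the 3 symbols or whose description named the oxytocin receptor, estrogen receptor 1 (alpha), or the progesterone receptor. Of the 15208 probes on the array, 4 met this rule and all 4 were among the 13164 tested: 1 for OXTR, 1 for PGR, and 2 for ESR1. Labeled RNA of each cow was hybridized to its own array, a custom 1-color Agilent array of 60-base probes. Japanese Black cows were either cycling, on day 15 (NP15, 4 arrays) or day 18 (NP18, 4 arrays), or pregnant, on day 15 (P15, 3 arrays) or day 18 (P18, 4 arrays). Tissue was taken after artificial insemination, the day of which was counted as day 1, from the horn on the side of the corpus luteum, and pregnancy was judged by eye from fetal trophoblast in the opened horn. No drug, transgene, or other treatment is named in the labels, and ages were not given in the sources used here.

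OXTR is a membrane receptor coupled to Gq proteins. In ruminants, oxytocin that reaches it in the endometrium late in the cycle triggers pulses of prostaglandin F2α, which end the life of the corpus luteum (luteolysis). ESR1 and PGR are nuclear receptors that bind DNA when occupied by their steroid. A long exposure to progesterone is known to lower PGR in the uterine epithelium, estrogen acting through ESR1 is known to raise OXTR and PGR, and interferon tau from the ruminant conceptus is known to hold OXTR down and so to spare the corpus luteum.

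The probe sequences are shown because the estrogen receptor results rest on several probes that are partly alike. OXTR and PGR each rest on 1 probe, here with the first 30 bases of the OXTR probe and the whole PGR probe:
OXTR probe ABR924: gattctcttcggagactgtctggcacaggc
PGR probe ABR420: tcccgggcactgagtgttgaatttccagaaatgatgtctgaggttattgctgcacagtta
ESR1 had probe ABR950, described as estrogen receptor alpha, and probe ABR1886, described as estrogen receptor 1. Another estrogen receptor probe, ABR1454, is described without a subtype. It does not meet the rule and is given beside the others, because it shares a run of 20 bases with ABR1886 (in capitals below, with the first 30 bases of ABR950). When these 2 probes were laid over each other at that run, 39 of 44 overlapping bases were equal:
ESR1 probe ABR950: gtctcccagctgggttcagatgactgtgca
ESR1 probe ABR1886: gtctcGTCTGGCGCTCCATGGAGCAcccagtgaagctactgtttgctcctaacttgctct
Estrogen receptor probe ABR1454: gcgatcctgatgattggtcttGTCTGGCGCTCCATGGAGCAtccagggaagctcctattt
ABR1886 shared no run of over 5 bases with ABR950, so the 2 ESR1 probes differ in sequence. With the shared run, signal from one transcript could reach both ABR1886 and ABR1454.

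Signals are given here as the processed intensity of a probe divided by the median of its array (array medians). The median intensity of an array was 315 to 838, and 65.6 to 88.3% of its probes were well above background. The lowest signal well above background was 0.0196 to 0.0519 array medians on day 15, 0.0660 to 0.0950 in NP18, and 0.102 to 0.180 in P18, so a weak transcript was harder to measure in P18. 1 array stood apart in the results that follow. NP18 replicate 1 was more than 2 log2 units below all other NP18 arrays for 92 of 13164 probes and above all of them for 118. The other 14 arrays had 26 to 171 such probes in both directions together, with 171 in NP18 replicate 4. The median correlation of NP18 replicate 1 with the arrays of its own group was 0.962, against 0.966 to 0.968 for the other NP18 arrays. It was 0.955 to 0.966 in NP15, 0.983 to 0.986 in P15, and 0.973 to 0.980 in P18. By this measure, NP18 replicate 1 was thus not the lowest of the series. Differences of the member probes that involve NP18 are therefore given with and without it, and a printed difference of another gene is given both ways where its call or direction changed.

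OXTR was low in NP15, P15, and P18 and high in 3 of 4 NP18 arrays. In NP15, its signal was 2.59, 2.04, 1.19, and 3.46 array medians in replicates 1 to 4. In P15, it was 1.44, 2.11, and 1.52. These groups overlapped. In NP18, it was 0.281, 46.3, 40.6, and 74.4 in replicates 1 to 4, and in P18, it was 2.16, 0.752, 3.56, and 1.22. Thus NP18 replicates 2 to 4 lay above every array of the other groups, and NP18 replicate 1 held the lowest OXTR signal of all 15 arrays. OXTR was well above background in all 15 arrays. The lowest of the other 3 NP18 arrays was 144-fold above replicate 1, a gap of 7.17 log2 units. Over the 13164 tested probes, this was the widest gap by which replicate 1 lay below the other NP18 arrays. The group means were 2.32 ± 0.955 (SD, n = 4) in NP15, 1.69 ± 0.365 (n = 3) in P15, 40.4 ± 30.5 (n = 4) in NP18, and 1.92 ± 1.24 (n = 4) in P18.

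**Figure D1:**
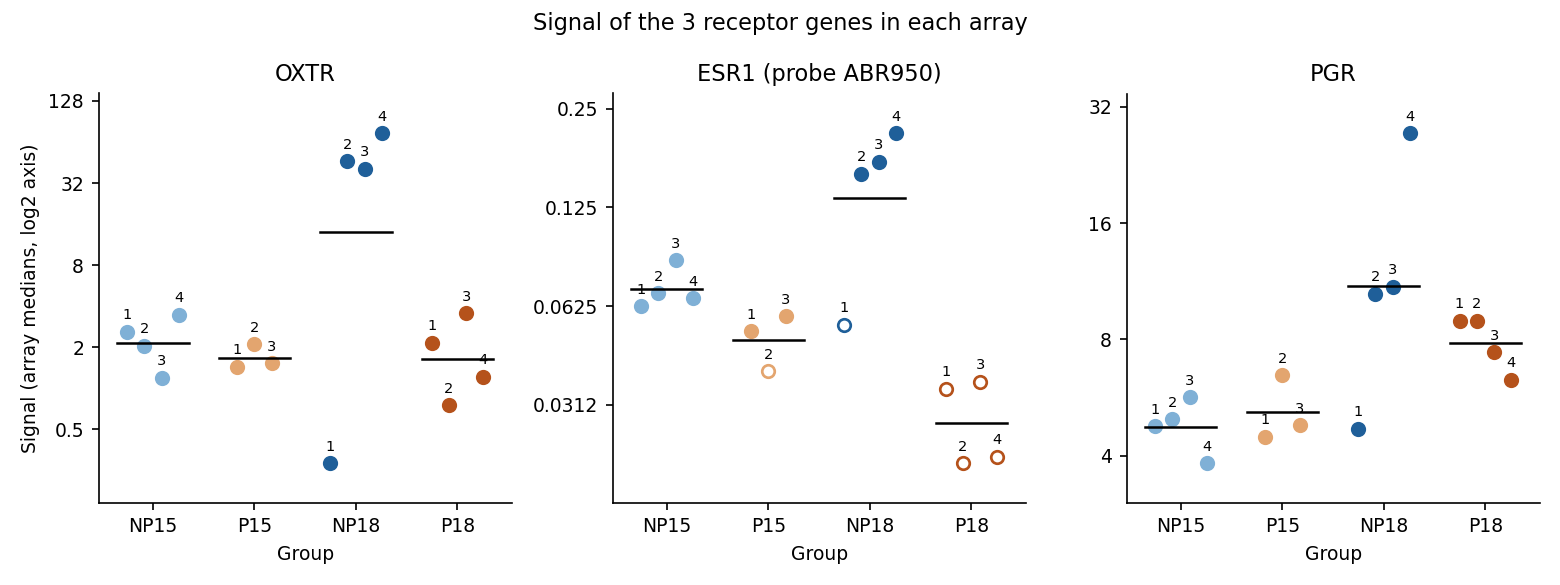
Signal of OXTR, ESR1 (probe ABR950), and PGR in each of the 15 arrays, in array medians on a log2 axis, by group. Each circle is 1 array with its replicate number, open circles were not well above background, and bars are the means of log2 values. NP18 replicates 2 to 4 are the highest arrays for OXTR (40.6 to 74.4), ESR1 (0.158 to 0.211), and PGR (10.5 to 27.3), and NP18 replicate 1 lies apart from them in each panel.

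The question of the day 18 comparison is whether the endometrium of pregnant cows differs from that of cycling cows on that day. With all arrays, OXTR was lower in P18 than in NP18 by a log2 fold change of -3.11 (SE 1.28, 95% interval -5.85 to -0.37), but this did not pass the test over all probes (limma adjusted p = 0.156; exact two-sided permutation p = 0.143). Calls required more than a 2-fold change and, over all tested probes, an adjusted p (Benjamini-Hochberg) under 0.05, and 5.75% of tested probes were called between P18 and NP18. Without NP18 replicate 1, the log2 fold change of OXTR was -4.99 (SE 0.48, adjusted p = 0.00011), and 7.92% of all probes were called. Leaving out the array that had the lowest OXTR signal of its group widens the difference by construction, so this value shows how much 1 array decided. The median of the 3 remaining NP18 arrays was 46.3 array medians, against a P18 range of 0.752 to 3.56.

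Within the cycle, OXTR was above all NP15 arrays in 3 of 4 NP18 arrays and below all of them in the other. NP18 minus NP15 was 2.71 (SE 1.28, limma adjusted p = 0.176), and 7.16% of all probes were called in this comparison. Without NP18 replicate 1 it was 4.59 (SE 0.48, adjusted p = 0.000418), with 11.9% of all probes called. On day 15, P15 minus NP15 was -0.38 (SE 1.38, adjusted p = 0.930, 0.798% of all probes called). Within pregnancy, P18 minus P15 was -0.03 (SE 1.38, adjusted p = 0.989, 11.9% of all probes called). The 95% interval of this last difference, -2.99 to 2.93, was wide, because the fit shares 1 spread over all groups and NP18 replicate 1 enlarges it. In order of the mean log2 signal, OXTR was highest in NP18, followed by NP15, P15, and P18, and no neighbors in this order differed past the test with all arrays.

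ESR1 lay near background, and this limits what can be said of it. Probe ABR950 gave 0.0625, 0.0684, 0.0863, and 0.0660 array medians in NP15 and 0.0524, 0.0395, and 0.0581 in P15. In NP18, it gave 0.0547, 0.158, 0.172, and 0.211, and in P18, it gave 0.0349, 0.0207, 0.0367, and 0.0217. NP18 replicates 2 to 4 were again the highest of all 15 arrays, and all 4 P18 arrays lay below all arrays of every other group. None of the 4 P18 arrays was well above background, however, and 3 of them held a surrogate value that the image software sets for spots at or below background. P15 replicate 2 and NP18 replicate 1 were not well above background either. The group means were 0.0708 ± 0.0106 (SD, n = 4) in NP15, 0.050 ± 0.00954 (n = 3) in P15, and 0.149 ± 0.0667 (n = 4) in NP18, with 0.0285 in P18 as measured.

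ESR1 by probe ABR950 was lower in P18 than in NP18, and no array of the groups overlapped (limma adjusted p = 0.00191; exact two-sided permutation p = 0.0286, the smallest that 4 against 4 arrays can give). The groups did not overlap for 16.3% of all probes. Because P18 was not well above background, only a bound can be given for the size: ESR1 was at least 1.04-fold higher in NP18 than in P18, or at least 1.40-fold without NP18 replicate 1. For this bound, each P18 array was set at the lowest signal well above background in that array. Leaving out other arrays lowered the bound to as little as 0.893, where no fold can be given. The fitted log2 fold change of -2.27 (SE 0.36) rests on P18 signals that were not well above background. It was -2.70 (SE 0.26, adjusted p = 0.00011) without NP18 replicate 1. All NP18 arrays were scanned on 1 day and all P18 arrays on another, so scan day and group cannot be told apart here. The call ended when scan day was fitted as a random block (adjusted p = 0.239). That fit kept the log2 fold change and widened its SE to 0.61. As no groups shared a scan day, it cannot decide the call. The call also ended with normexp background correction, a background model with an offset of 50 added to each signal. There the log2 fold change was -0.57 (adjusted p = 0.0547). Before scaling, ABR950 signals in P18 were 11.6 to 16.4, less than this offset. The offset alone shrinks such a difference, so normexp cannot decide the call either.

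**Figure D2:**
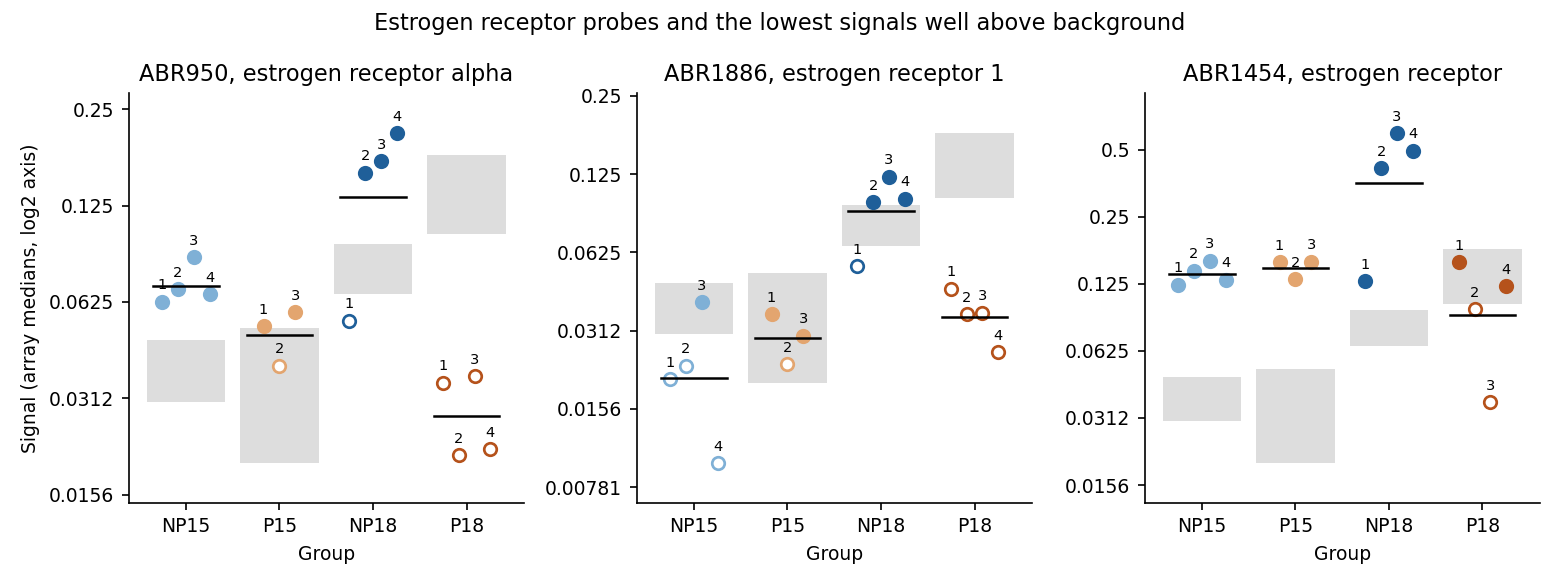
Signal of 3 estrogen receptor probes in each of the 15 arrays, in array medians on a log2 axis, by group. Each circle is 1 array with its replicate number, open circles were not well above background, bars are means of log2 values, and gray bands span the lowest signals well above background in the arrays of the group (0.102 to 0.180 in P18). All P18 circles of ABR950 and ABR1886 are open and lie below the band.

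The second ESR1 probe, ABR1886, was dimmer. It gave 0.0203, 0.0229, 0.0402, and 0.00966 array medians in NP15, 0.0362, 0.0232, and 0.0299 in P15, 0.0552, 0.0975, 0.122, and 0.101 in NP18, and 0.0453, 0.0362, 0.0367, and 0.0258 in P18. It was well above background in 1 of 4 NP15, 2 of 3 P15, 3 of 4 NP18, and 0 of 4 P18 arrays. All 4 NP18 arrays lay above all arrays of the other groups. NP18 was called higher than NP15 (log2 fold change of 2.13, SE 0.37, limma adjusted p = 0.00421; 2.37, adjusted p = 0.00224 without NP18 replicate 1), and the groups of this comparison did not overlap for 13.1% of all probes. Since 3 NP15 arrays were not well above background, and the NP15 signals lay below the lowest that could be measured in NP18, the size of this difference is uncertain. The call ended with normexp, where the difference was 0.12 (adjusted p = 0.555), with scan day as a block (adjusted p = 0.0940), with these groups fitted alone (adjusted p = 0.0532), and in the adjusted test of the methods (adjusted p = 0.113). Between P18 and NP18, the probe was also called (adjusted p = 0.0416, or 0.0201 without NP18 replicate 1), but with P18 set at its background limit the bound fell under 1 and no fold can be given. This call was kept in 5 of 15 fits with 1 array left out. It ended with normexp (-0.06, adjusted p = 0.821) and with scan day as a block (adjusted p = 0.686). As for ABR950, the scan day fits cannot decide the calls of this probe. Of the 4 member probes, 2 were thus called between P18 and NP18, against 5.75% of all probes, and 1 between NP18 and NP15, against 7.16%. All of these calls are of ESR1 probes, which were not well above background in P18 and lost each call with normexp.

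Probe ABR1454, described as an estrogen receptor only, gave 0.124 to 0.159 array medians in NP15 and 0.131 to 0.157 in P15. In NP18, it gave 0.129, 0.412, 0.594, and 0.494, and in P18, 0.156, 0.0963, 0.0367, and 0.122, with 2 of these 4 not well above background. Replicates 2 to 4 of NP18 were again above all other arrays. P18 was called lower than NP18 (log2 fold change of -1.96, SE 0.46, limma adjusted p = 0.0210), and by -2.45 (SE 0.38, adjusted p = 0.00183) without NP18 replicate 1. This call was kept in 11 of 15 fits with 1 array left out, and lost without replicate 3 or 4 of NP18 or replicate 2 or 3 of P18 (adjusted p of up to 0.0701). It also ended with normexp, where the difference was -0.95, under the fold limit. The call was lost with scan day as a block (adjusted p = 0.656) and with these groups alone (adjusted p = 0.0872). It was also lost in the adjusted test of the methods (adjusted p = 0.183). As for ABR950, the scan day fit cannot decide the call. NP18 minus NP15 was 1.35 (SE 0.46, adjusted p = 0.0721) or 1.84 (SE 0.38, adjusted p = 0.00728) without NP18 replicate 1.

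For ABR950, NP18 minus NP15 was 0.92 (SE 0.36, adjusted p = 0.105), and 1.35 (SE 0.26, adjusted p = 0.00501) without NP18 replicate 1. On day 15, all 3 P15 arrays lay below all 4 NP15 arrays, as for 15.6% of probes in either direction, with a log2 fold change of -0.51 (SE 0.39, limma adjusted p = 0.574; exact permutation p = 0.0571, the smallest that 3 against 4 arrays can give). P18 lay below all P15 arrays, as for 42.8% of probes in either direction, but the P15 signals were themselves below the P18 background limit, so no fold can be given (adjusted p = 0.146). ABR1886 was 0.51 higher in P15 than in NP15 (SE 0.40, adjusted p = 0.593), so the 2 ESR1 probes differed in sign on day 15, and neither passed the test.

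PGR was well above background in all 15 arrays and differed less between groups. Its signal was 4.77, 4.97, 5.67, and 3.83 array medians in NP15 and 4.48, 6.47, and 4.80 in P15. In NP18, it was 4.71, 10.5, 10.9, and 27.3, and in P18, it was 8.94, 8.94, 7.40, and 6.28. NP18 replicates 2 to 4 were the 3 highest arrays, while NP18 replicate 1 fell in the range of NP15, and 3 of 4 P18 arrays lay above all P15 arrays. The means were 4.81 ± 0.760 (SD, n = 4) in NP15, 5.25 ± 1.07 (n = 3) in P15, 13.4 ± 9.73 (n = 4) in NP18, and 7.89 ± 1.29 (n = 4) in P18.

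None of the differences of PGR was called with all arrays. NP18 minus NP15 was 1.21 on the log2 scale (SE 0.39, limma adjusted p = 0.0574), and it was 1.62 (SE 0.31, adjusted p = 0.00553) without NP18 replicate 1 and 0.77 without NP18 replicate 4, whose signal was the highest. The adjusted p of this difference was up to 0.134 with 1 array left out. P18 minus NP18 was -0.50 (SE 0.39, 95% interval -1.32 to 0.33, adjusted p = 0.461), or -0.91 (SE 0.31, adjusted p = 0.0799) without NP18 replicate 1. With 1 array left out, this difference ran from -0.91 to -0.06, with an adjusted p of up to 0.930. P18 minus P15 was 0.59 (SE 0.42, adjusted p = 0.343), and P15 minus NP15 was 0.12 (SE 0.42, adjusted p = 0.925). In order of mean log2 signal, PGR was highest in NP18, then in P18, P15, and NP15, and no neighbors differed past the test. In bulk tissue such as this, fewer cells of a type and less RNA per cell cannot be told apart.

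**Figure D3:**
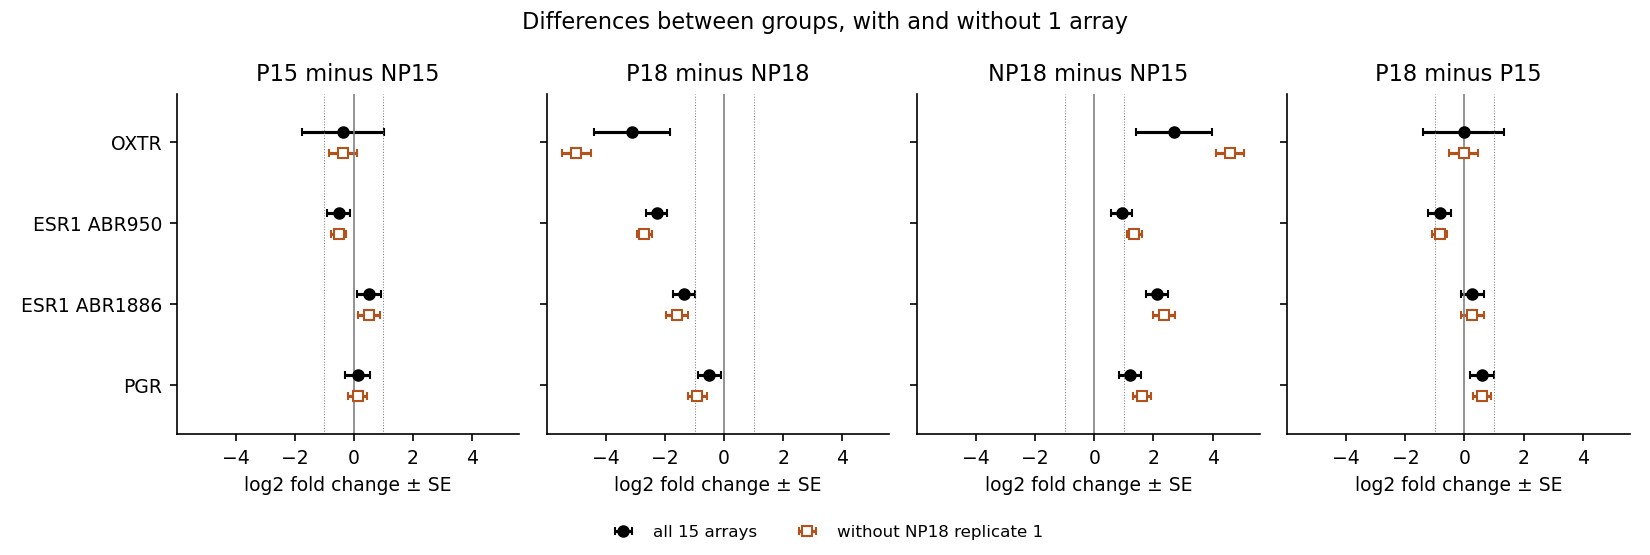
Log2 fold changes with SE (bars) of the 4 member probes in 4 comparisons, from limma with all 15 arrays (filled circles) and without NP18 replicate 1 (open squares). Dotted lines mark a fold change of 2. OXTR moves from -3.11 to -4.99 for P18 minus NP18 and from 2.71 to 4.59 for NP18 minus NP15 when this array is left out. The ESR1 probes were not well above background in any P18 array.

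Whether pregnancy acted differently on day 18 than on day 15 was tested by the interaction, the pregnancy effect of day 18 minus that of day 15, for which 2.72% of all probes were called. It was -2.74 (SE 1.89, limma adjusted p = 0.456) for OXTR, -1.77 (SE 0.53, adjusted p = 0.0820) for ESR1 by ABR950, -1.86 (SE 0.55, adjusted p = 0.0783) by ABR1886, and -0.62 (SE 0.57, adjusted p = 0.591) for PGR. No member probe was called. Without NP18 replicate 1, 3.18% of all probes were called, and the interaction was -4.62 (SE 0.67, adjusted p = 0.0115) for OXTR, -2.19 (SE 0.36, adjusted p = 0.0119) for ABR950, -2.10 (SE 0.53, adjusted p = 0.0499) for ABR1886, and -1.03 (SE 0.44, adjusted p = 0.219) for PGR. With 1 array left out, the interaction of PGR ran from -1.03 to -0.18 and was not called in any of these fits. All of the comparisons share arrays, so a member that is high in NP18 moves in several of them at once.

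The 3 genes were also set against each other within groups. After each log2 value was taken relative to the mean of its group, OXTR and ESR1 (ABR950) had a Pearson r of 0.862 and a Spearman rho of 0.704 over 15 arrays (permutation p = 0.0404 and 0.0407, permuted within groups, and 0.122 after adjustment over 6 relations). For OXTR and PGR, r was 0.721 (p = 0.242, adjusted p = 0.337) and rho 0.232 (permutation p = 0.446), and for ESR1 and PGR, r was 0.710 (p = 0.112, adjusted p = 0.224) and rho 0.329 (permutation p = 0.281, adjusted p = 0.337). These relations rested on NP18. Without the 2 arrays farthest from the median, NP18 replicates 1 and 4, r was 0.508, -0.227, and -0.002 for these pairs in turn. Over the 11 arrays of the other groups, it was 0.358, -0.245, and 0.025. ABR950 was not well above background in any P18 array, P15 replicate 2, or NP18 replicate 1, which limits its relations.

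Of the genes that could act with OXTR, 29 were listed for oxytocin and the Gq pathway, of which 18 were tested. None was called between P18 and NP18, with a median log2 fold change of -0.20 against 0.07 over all probes. OXT, which encodes oxytocin itself, was at 0.238 to 1.13 array medians in NP18 and 0.348 to 0.445 in P18, a log2 fold change of -0.15 (SE 0.37, limma adjusted p = 0.846). Without NP18 replicate 1, ITPR2, a calcium channel opened by inositol trisphosphate, was called higher in NP18 than in NP15, at 1.61 (SE 0.41, adjusted p = 0.0186). From P15 to P18, GNA11, a Gq family subunit, fell by 1.17 on the log2 scale (SE 0.23, adjusted p = 0.00649), and PLCB1, a phospholipase that Gq activates, was called lower (adjusted p = 0.0233) but was not well above background in any P18 array.

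Of 21 genes of prostaglandin synthesis, transport, and reception, 16 were tested. PTGS2, the inducible cyclooxygenase, did not pass the test in any comparison. Its signal in NP18 was 6.55, 53.0, 93.3, and 13.7 array medians in replicates 1 to 4, again lowest in replicate 1, and its P18 minus NP18 was 0.42 (SE 0.70, adjusted p = 0.759), or -0.24 (SE 0.62, adjusted p = 0.842) without that array. AKR1B1, a prostaglandin F synthase of bovine endometrium, had P18 minus NP18 of -0.63 (SE 0.36, adjusted p = 0.307). CBR1, which converts prostaglandin E2 to F2α, was the 1 gene called between P18 and NP18 (log2 fold change of 1.42, SE 0.36, adjusted p = 0.0316). Without NP18 replicate 1, SLCO2A1, a prostaglandin transporter, was also called lower in P18 than in NP18, by -1.50 (SE 0.39, adjusted p = 0.0313), and higher in NP18 than in NP15, by 2.10 (SE 0.39, adjusted p = 0.00478). Of the prostaglandin E2 receptors, PTGER2 rose from NP15 to NP18 by 1.36 (SE 0.41, adjusted p = 0.0485) and from P15 to P18 by 2.17 (SE 0.45, adjusted p = 0.00745). PTGER4 rose from NP15 to NP18 by 1.94 (SE 0.59, adjusted p = 0.0482), and by 1.99 without NP18 replicate 1, where its adjusted p of 0.0524 missed the threshold. PTGDS, a prostaglandin D synthase, fell by 1.43 within the cycle (SE 0.35, adjusted p = 0.0196) and by 1.27 within pregnancy (SE 0.37, adjusted p = 0.0333) on the log2 scale. AKR1C4, an aldo-keto reductase, rose from P15 to P18 by 2.62 (SE 0.69, adjusted p = 0.0204). PTGFR, the receptor of prostaglandin F2α, was well above background in 2 of 15 arrays and was not tested.

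Of 29 genes of the estrogen receptor family and its partners, 7 were tested, and none was called between P18 and NP18. ESR2, the second estrogen receptor, did not pass the test in any comparison, with P18 minus NP18 of 0.19 (SE 0.61, adjusted p = 0.885). HSD17B1, which makes estradiol from estrone, was lower on day 18 than on day 15 in the cycle, by a log2 fold change of -1.31 (SE 0.36, adjusted p = 0.0331), and in pregnancy, by -2.05 (SE 0.39, adjusted p = 0.00493). Of 25 genes known to respond to estrogen, OXTR and PGR among them, 17 were tested, and 0 rose and 1 fell between NP18 and P18 (median log2 fold change of -0.21 against 0.07 over all probes). When NP18 replicate 1 was left out, 3 fell: RARA, CTSD, and OXTR. The gene that fell with all arrays was RARA, a retinoic acid receptor, by -1.38 (SE 0.26, adjusted p = 0.00619). CTSD, the protease cathepsin D, fell from NP15 to NP18 by 1.49 on the log2 scale (SE 0.29, adjusted p = 0.00690). CTSD was also lower in P15 than in NP15 (log2 fold change of -1.47, SE 0.31, adjusted p = 0.0430).

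Of 22 partners of the progesterone receptor, 12 were tested and none was called in any comparison. The membrane progesterone receptor components PGRMC1 (P18 minus NP18 of 0.76, SE 0.42, adjusted p = 0.293) and PGRMC2 (-0.19, SE 0.21, adjusted p = 0.619) and the chaperone FKBP4 (0.17, SE 0.33, adjusted p = 0.792, or -0.07, SE 0.32, adjusted p = 0.913 without NP18 replicate 1) did not pass the test. Of 41 genes known to follow progesterone in the uterus, 26 were tested. Between NP18 and P18, 4 were called higher and 3 lower in P18, and all 7 were also called without NP18 replicate 1. FABP3, a fatty acid binding protein, rose by 5.10 (SE 0.77, adjusted p = 0.00143), and SLC2A1, a glucose transporter, by 2.55 (SE 0.47, adjusted p = 0.00586), while ACTG2, a smooth muscle actin, fell by 2.13 on the log2 scale (SE 0.51, adjusted p = 0.0230). LGALS9, a galectin, was also called higher in P18 (adjusted p = 0.000386), but it was well above background in 0 of 4 NP18 arrays and 1 of 4 P18 arrays. Within the cycle, IGFBP1, which binds insulin-like growth factors, was lower in NP18 than in NP15 by a log2 fold change of -3.73 (SE 0.75, adjusted p = 0.00874), and IGFBP3 was higher by 1.34 (SE 0.36, adjusted p = 0.0305).

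Of 19 interferon receptors, transcription factors, and target genes, 12 were tested, and 5 were called higher and 1 lower in P18 than in NP18, with and without NP18 replicate 1. ISG15, a ubiquitin-like protein, was at 8.41 to 17.0 array medians in NP18 and 641 on average in P18 (log2 fold change of 5.74, SE 0.51, limma adjusted p = 2.71e-05). The antiviral GTPases MX1 and MX2 were higher by 3.65 (SE 0.37, adjusted p = 4.81e-05) and 6.09 (SE 0.56, adjusted p = 2.92e-05). IRF9, an interferon regulatory factor, was higher by 3.17 (SE 0.29, adjusted p = 2.75e-05). The gene that was lower, named after its values were seen, was the interferon receptor IFNAR1, by -1.98 (SE 0.45, adjusted p = 0.0179). IRF1 (0.71, SE 0.31, adjusted p = 0.176) and IRF2 (0.35, SE 0.26, adjusted p = 0.436), of the same family as IRF9, did not pass the test. In NP18 replicate 1, ISG15 was 17.0 and MX1 31.5 array medians. ISG15 was the highest of the 4 NP18 arrays there, and MX1 lay within the range of the others (23.9 to 43.0).

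**Figure D4:**
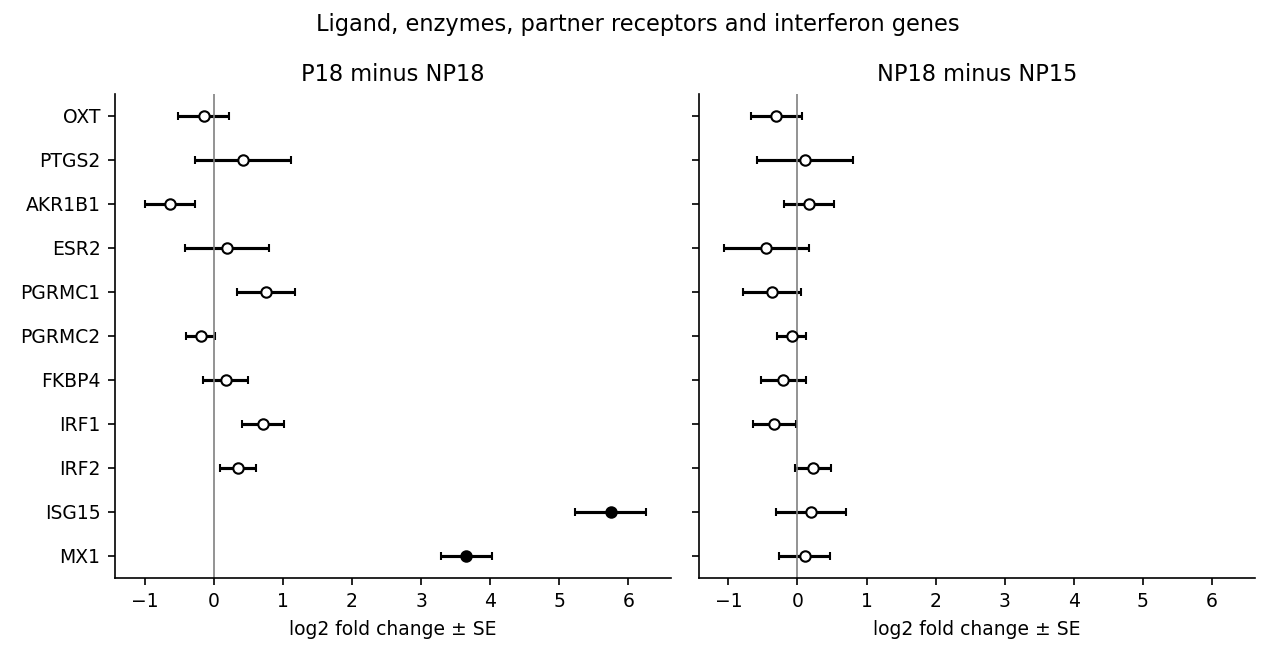
Log2 fold changes with SE (bars) of genes around the receptors for P18 minus NP18 and NP18 minus NP15, from limma with all 15 arrays. Filled circles were called and open circles were not. ISG15 and MX1 (5.74 and 3.65) are the filled circles, all in P18 minus NP18, while OXT, PTGS2, AKR1B1, ESR2, PGRMC1, PGRMC2, FKBP4, IRF1, and IRF2 are open in both panels.

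Markers of the cell types in the tissue were measured beside the receptors, since the part of cell composition in the differences was not tested. For epithelium, 9 of 13 listed genes had a probe and 8 or 9 were well above background in all arrays of each group. Their summed signal was 280 to 357 array medians in NP15, 144 to 195 in P15, and 240 to 344 in P18. In NP18 it was 146 in replicate 1 and 402, 321, and 307 in replicates 2 to 4, so the array with the lowest OXTR signal also had the lowest epithelial sum of its group. With all arrays, 0 of the 9 tested epithelial genes were called in limma between P18 and NP18, and 3 had a log2 fold change above 0. When NP18 replicate 1 was left out, KRT7, a keratin, was called lower in P18 by -3.34 (SE 0.63, adjusted p = 0.00680), as was CLDN3, a claudin of tight junctions, by -2.23 (SE 0.64, adjusted p = 0.0447). The epithelial gene EPCAM went the other way and was not called. Its difference was 0.35 (SE 0.32, adjusted p = 0.545) with all arrays and 0.15 (SE 0.33, adjusted p = 0.812) without that array. OXTR was 1.44 to 2.11 in P15 (epithelial sums 144 to 195) and 1.19 to 3.46 in NP15 (280 to 357). In P18, it was 0.752 to 3.56 (240 to 344), and the part of epithelium in these values was not tested. Smooth muscle markers (7 of 11 with a probe) summed to 21.0 to 61.3 in P18, against 131, 49.9, 97.4, and 220 in NP18 replicates 1 to 4, and 3 of the 7 tested fell between NP18 and P18. Stromal markers (10 of 13 with a probe) summed to 711 to 1202 in NP18 and 672 to 839 in P18, endothelial markers (7 of 10) to 19.8 to 40.4 and 18.6 to 32.8, and leukocyte markers (11 of 16) to 6.62 to 9.62 and 8.22 to 15.3. For stroma and endothelium, 1 and 2 of the tested genes fell, and for leukocytes none was called, while CD4 and ITGAM were not well above background in any array of either group.

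Trophoblast markers, 12 of 16 with a probe, summed to 0.303 to 1.66 array medians in the 11 arrays of NP15, P15, and NP18, and to 0.805, 141, 85.3, and 642 in P18 replicates 1 to 4. Between NP18 and P18, 7 of the 10 tested were called higher and 1 lower. Of these 12, 10 were not well above background in any NP18 array, among them IFNT2, TKDP1, and PAG11. P18 replicate 1 thus lay in the range of the other groups for this sum, although its ISG15 signal (626 array medians) lay within that of the other P18 arrays. Its signals were 2.16 for OXTR and 8.94 for PGR, each within the range of P18. Without it, the log2 fold change between P18 and NP18 was -3.25 for OXTR and -2.39 for ESR1 (ABR950).

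Finally, the genes with a symbol whose log2 values over the 15 arrays were most like, or most opposite to, those of each receptor were listed, among 4697 or 4698 probes well above background in all 15 arrays. These correlations are descriptions over arrays that share groups and scan days. For OXTR, the highest r was with TAGLN2 (0.902), an actin-binding protein, followed by HM13 (0.883), MGC128596 (0.877), ACAT2 (0.859), and CD44 (0.859). TAGLN2 was at 80.3, 195, 168, and 334 array medians in NP18 replicates 1 to 4, and at 100 to 137 in the other groups. The lowest r was with SLC27A1 (-0.944), a fatty acid transporter, ZNF345 (-0.900), and CITED1 (-0.898). SLC27A1 was at 11.2 array medians in NP18 replicate 1 and 4.85 to 5.92 in the other 3. Over the 11 arrays outside NP18, r was 0.356 for TAGLN2, 0.512 for HM13, 0.487 for MGC128596, 0.067 for ACAT2, and 0.160 for CD44. It was -0.662 for SLC27A1, -0.033 for ZNF345, and -0.341 for CITED1. The likeness thus rested in part on NP18. These genes were chosen by r over all 15 arrays, so some of the change follows from the choice.

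For ESR1 by ABR950, high r was found with MGC142633 (0.889), erp70 (0.855), VEGFA (0.846), which encodes a growth factor of blood vessels, and MSTN (0.840), which encodes myostatin. VEGFA was at 0.605, 1.27, 1.32, and 2.17 array medians in NP18 replicates 1 to 4 and at 0.419 to 0.679 in P18, and r outside NP18 was 0.588. The lowest r was with the chemokine receptor CXCR4 (-0.906), which was at 0.725 to 3.61 in NP18 and 4.41 to 7.30 in P18. BOLA-DOB (-0.873) and NT5C2 (-0.866) followed. None of the 4 P18 values of ABR950 in these correlations was well above background, and 3 of them were surrogates. For PGR, the highest r was with BCCIP (0.946), FLJ20565 (0.933), TBC1D1 (0.923), WDR77 (0.921), and HDDC2 (0.916), and the lowest with ZNF345 (-0.919), CCDC93 (-0.911), and GPRC5B (-0.898). BCCIP was at 14.6, 30.1, 28.5, and 54.5 in NP18 replicates 1 to 4, with replicate 4 highest as for PGR, and at 18.7 to 27.8 in P18. Outside NP18, r was 0.834 for BCCIP and 0.904 for TBC1D1, higher than the values of the OXTR genes, although this difference was not tested.

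**Figure D5:**
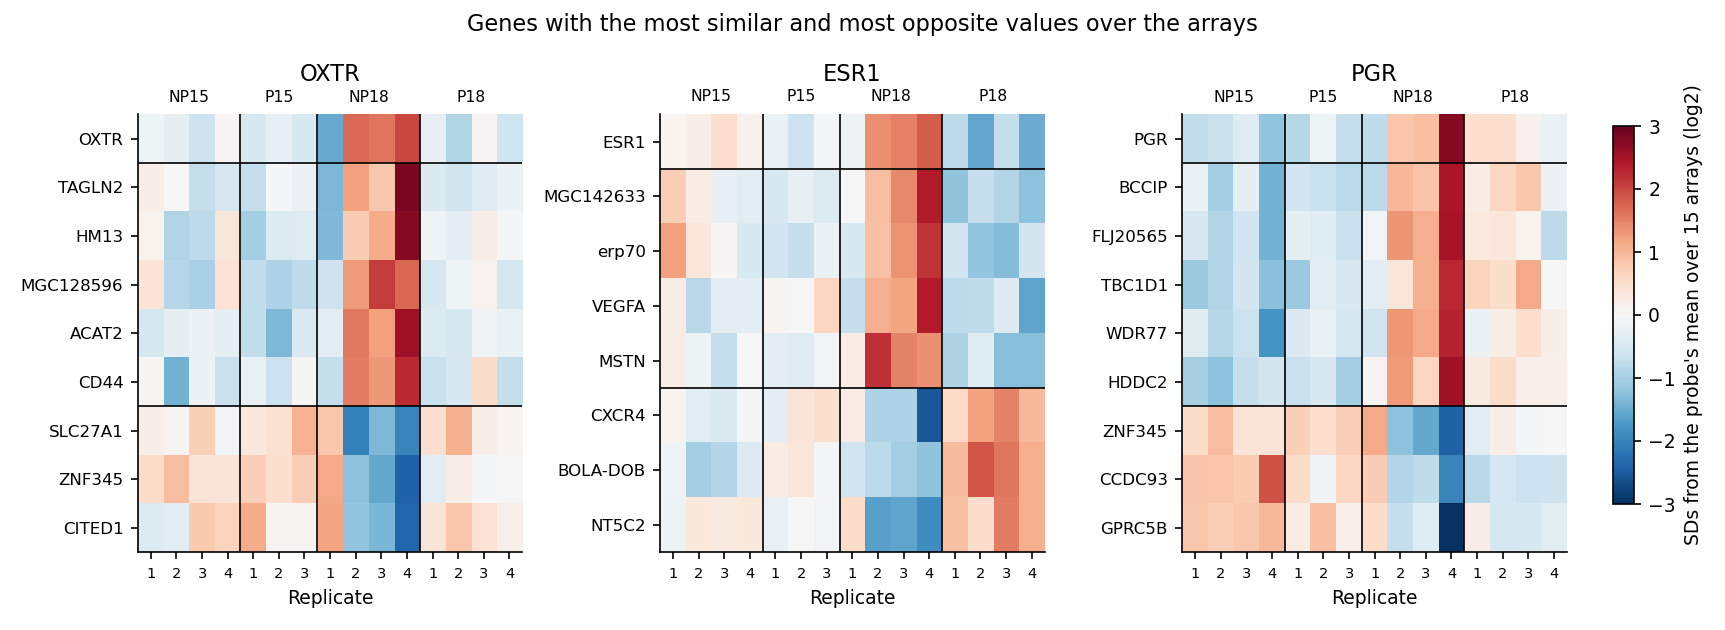
Log2 signals of OXTR, ESR1 (probe ABR950), and PGR (top rows) and of 5 genes (4 for ESR1) with high and 3 with the lowest correlation with each, over the 15 arrays, as SDs from the mean of each probe. Columns are replicates within the 4 groups. NP18 replicates 2 to 4 stand out from the other arrays in most rows. For OXTR, the value of NP18 replicate 1 (0.281 array medians) is the lowest of all. No P18 value of ABR950 was well above background.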

How the data were processed

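The authors labeled RNA with Cy3, hybridized it to 15 arrays, and extracted the images with Agilent Feature Extraction 9.5. The deposited processed signals are intensities on a linear scale, after background subtraction, with surrogates for signals near or under background. The deposited log2 table of the same arrays equalled the log2 signal minus a constant near the log2 of each array's 75th percentile, and was used as an alternative. As in the methods, intensities were scaled by each array's median (15208 probes) before the log2. Controls and outlier spots were dropped, but not saturated spots. Testing was limited to the 13164 probes that were well above background in 3 or more arrays. A model with a mean for each group was fitted to the 15 arrays (limma 3.58.1, R 4.3.3), and p-values were Benjamini-Hochberg adjusted over all tested probes. In all, 20 exact permutation tests (scipy 1.17.1, Python 3.11.15) and 100000 permutations for correlations were run, without adjustment where none is stated.

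Probes were named from the files and, for names alone, RefSeq's genes of ARS-UCD2.0; 8155 probes had no symbol, and the others gave 6778 genes. The build of the files was not given in the sources used here, so no coordinates are given. The members and the gene lists were chosen with earlier results of these data known. Named were all member probes, genes called in each list (up to 4 per comparison, the largest), a fixed set of pathway genes (NRIP1, FOXA2, HAND2, and FKBP5 had no named probe), and the 8 most like or opposite genes per receptor. Some genes that met this rule are not reported here. For a gene with several probes, the brightest was taken. No groups shared a scan day or slide, and P18, NP18, and P15 were each scanned on 1 day, so scan day and group cannot be told apart there. Replicates are cows, whose number, 3 or 4 per group, limits the precision. The labels' replicate numbers did not pair the arrays. The alternatives were other scalings, background correction, filters, variance models, blocks, the methods' t-test, and leaving out each array. That t-test was run with and without an adjustment over probes, which the methods do not name. The counts of list genes without NP18 replicate 1 were added after the data were seen, and the genes named from them alone (ITPR2, SLCO2A1, and KRT7) were chosen after their values were seen.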

Additional observations from a re-analysis of the deposited data

Results flagged for a closer look

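OXTR in NP18 replicate 1 was flagged because it lay far below the other arrays of its group. Its gap to the nearest array was 0.892 of the whole log2 range of the 4 NP18 arrays, above the critical value of Dixon's test for 4 arrays. Chance flags about 1 in 20 groups, and 15 groups of 4 arrays were looked at, over 5 probes. The signal was 0.281 array medians in this array and 40.6 to 74.4 in the other 3. The epithelial marker sum was 146 array medians there and 307 to 402 in the others, and the part of it in the OXTR value was not tested.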

How the results depend on the processing

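Over 20 results of the member probes and 598 values under alternatives, 540 kept their direction and their side of the threshold, 22 lost the call, 25 gained it, and 11 changed sign, 0 of them while called. The log2 fold changes of OXTR moved to -4.47 for P18 minus NP18, 3.74 for NP18 minus NP15, and -4.06 for the interaction with array weights, all called. With 1 array left out, they ran from -4.99 to -2.31, from 1.90 to 4.59, and from -4.62 to -1.94, with the calls made without NP18 replicate 1 alone, and from -0.41 to 0.34 for P18 minus P15. ESR1 (ABR950) between P18 and NP18 lost its call with normexp background correction (-0.57), with a random block for scan day (-2.27, adjusted p = 0.239), and in the methods' t-test with adjustment (-2.27, adjusted p = 0.0900). It ran from -2.70 to -2.05 with 1 array left out, with the call kept in all 15 fits. Its NP18 minus NP15 was 1.12 with array weights (called), 0.12 with normexp (adjusted p = 0.678), and 0.70 to 1.35 with 1 array left out. Its P18 minus P15 was called at -1.14 after division by the 75th percentile and in the authors' log2 table, -1.51 after quantile normalization, and -1.06 with array weights, and changed sign to 0.11 with normexp. Its interaction was called at -2.47 with quantile normalization and -2.18 with array weights, was -0.01 with normexp (adjusted p = 0.981), and ran from -2.19 to -1.54 with 1 array left out.

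ABR1886 changed sign with normexp, to -0.41 for P15 minus NP15 and 0.36 for the interaction, and for P18 minus P15, to -0.028 after the 75th percentile, -0.026 in the table of the authors, and -0.25 after quantile normalization. With normexp, its P18 minus NP18 was -0.06 and its NP18 minus NP15 0.12, neither called, and its P18 minus NP18 call was kept in 5 of 15 fits with 1 array left out. Both ESR1 probes thus moved with normexp, whose offset of 50 was larger than their unscaled signals in every NP15, P15, and P18 array. Such an offset alone shrinks differences between weak signals. These shifts therefore cannot decide the results, and the cause was not tested. PGR in NP18 minus NP15 was called at 1.25 with normexp, 1.21 without a filter, with probes well above background in all 15 arrays, or with trend and robust variances, and 1.13 with array weights, and ran from 0.77 to 1.62 with 1 array left out. In P15 minus NP15 it was -0.014 with array weights and -0.038 to 0.23 with 1 array left out.

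The number of probes called moved by over 1.5 times as follows. For P15 minus NP15 (105), it was 853 with array weights, 52 with the slide as a random block, 0 with a random block for scan day or in the methods' t-test with adjustment, 433 in that test without adjustment, and 2 with these groups alone, and 4 to 344 with 1 array left out. For P18 minus NP18 (757), it was 1344 with array weights, 49 with the scan day, 188 and 1157 in the t-test with and without adjustment, and 477 with the groups alone, and 428 to 1043 with 1 array left out. For NP18 minus NP15 (942), it was 1744 without a filter, 1529 with array weights, 54 with the scan day, 137 in the adjusted t-test, 157 with the groups alone, and 1421 with no fold limit, and 616 to 1565 with 1 array left out. For P18 minus P15 (1566), it was 3080 without a filter, 2408 with array weights, and 0 with the scan day, and 737 to 1730 with 1 array left out. For the interaction (358), it was 1377 with normexp, 1332 with array weights, 179 with the slide, and 0 with the scan day, and 59 to 549 with 1 array left out. At an unadjusted p under 0.05, the counts that were 0 with the scan day in limma were 692 for P15 minus NP15, 1726 for P18 minus P15, and 844 for the interaction, and the t-test gave 1681 for P15 minus NP15.

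With the replicate block, no call of a member probe changed, and the count of probes called was 8 for P15 minus NP15 and 192 for the interaction. The correlations between same-numbered arrays ran from -0.259 to 0.304, so the numbers share only a name. Division by the 75th percentile moved the median log2 difference of all probes from 0.12 to -0.18 for P18 minus P15, and the share of higher calls from 63.7 to 31.2%. It moved that share from 43.8 to 62.4% for P15 minus NP15, from 40.4 to 25.6% for NP18 minus NP15, and from 76.0 to 57.1% for the interaction. Quantile normalization moved it from 63.5 to 49.1% for P18 minus NP18. By both member probes, ESR1 was not well above background in any P18 array.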
